A study of Mus musculus with 6 samples.

Results

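The BMP pathway and ID factors are followed here across 6 RNA-seq libraries of cultured brown adipocytes. Of 10 genes chosen by symbol, 9 were found among the 13283 genes of the deposited table, namely Grem1, Bmpr1a, Bmpr2, Smad1, Smad5, Smad6, Id1, Id2 and Id3. The ligand gene Bmp4 was not found and was not analysed here. An immortalized line of mouse brown preadipocytes (BAT cells) was used, with 3 libraries from MICT1 KO cells and 3 from control cells (Scr), called WT in the labels. Per the study's methods, both groups expressed Cas9, and MICT1 KO cells, sorted pools rather than single clones, carried a guide RNA against MICT1 where Scr cells carried a scrambled one. Every culture was differentiated and received 10 µM forskolin, an activator of adenylyl cyclase, for 6 h on day 6, so no unstimulated or undifferentiated cells enter the comparison. The labels do not say which guide RNA pool each MICT1 KO library came from, nor whether replicates were separate cultures. The study's methods describe its replicates as biological, but do not say what was replicated for these libraries. The p-values set the group difference against the spread between these libraries, which need not be that of separate cultures.

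Bone morphogenetic proteins (BMPs) are secreted ligands that bring together type I receptors, such as BMPR1A, and type II receptors, such as BMPR2, on the cell surface. The type I receptor phosphorylates SMAD1, SMAD5 and SMAD9, which enter the nucleus with SMAD4 and switch on target genes, among them Id1, Id2, Id3 and the gene of the inhibitory SMAD6. Gremlin-1, the product of Grem1, binds BMPs outside the cell and keeps them from their receptors. ID proteins have a helix-loop-helix but no DNA-binding region, so they pair with E proteins and hold them off DNA. BMP signaling is known for committing progenitors to the adipocyte lineage, brown adipocytes included, and ID proteins are known to be abundant in undifferentiated progenitors.

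Values are the authors' normalized signal, read as the estimated reads of a gene over its library's size factor, which lay between 0.949 and 1.08. Library totals correspond to 15445811 to 17925630 reads. Differences were tested with limma-trend on log2(value + 1) over the 12507 genes that reached 10 in 3 or more libraries. All 9 genes passed this filter, with no fewer than 216 reads in any library. The MICT1 transcript was not analysed here, and the knockout was therefore not checked on its target. Markers of mature adipocytes differed widely between the groups. All 9 adipocyte markers examined were lower in MICT1 KO (limma-trend, adjusted p under 0.05), and their summed level was 1468 to 1779 RPKM (reads per kilobase of exon, scaled to the library total) in Scr and 143 to 219 RPKM in MICT1 KO libraries. Ucp1, the marker of brown adipocytes among them, was low in both groups, at 0.938 RPKM in Scr and 0.154 RPKM in MICT1 KO. Among these markers, Ucp1 and Adipoq passed the filter only through Scr, where they were higher. Of 8 preadipocyte markers 6 were found, 3 of them higher and 2 lower, with a summed level of 48.2 to 56.0 RPKM in Scr and 72.3 to 76.3 RPKM in MICT1 KO. The higher ones were Ly6a (14.6 RPKM in Scr and 38.4 RPKM in MICT1 KO), Pdgfrb and Ebf2. The lower ones were Dlk1 (7.43 RPKM in Scr and 0.692 RPKM in MICT1 KO) and Pdgfra, so the sum hides opposite changes. Pdgfra overlapped between the groups, and its limma-trend adjusted p of 0.0347 rose to as much as 0.168 with a library left out. Skeletal muscle (2 of 8 markers found), endothelial (1 of 7) and macrophage (2 of 7) markers summed to at most 2.65 RPKM in any library. The endothelial marker, Cdh5, was called higher, at 0.126 RPKM in Scr and 0.436 RPKM in MICT1 KO (limma-trend adjusted p = 0.00275). It passed the filter only through MICT1 KO, with Scr values of 5.93, 12.1 and 8.14, so the call is no support for that direction. No skeletal muscle or macrophage marker found was called. Bone and cartilage markers (4 of 7 found) summed to 17.1 to 19.0 RPKM in Scr and 5.78 to 5.98 RPKM in MICT1 KO, with 1 of them higher and 1 lower. The lower one was Alpl, at 17.9 RPKM in Scr and 5.14 RPKM in MICT1 KO, which made up most of the sum, and the higher one was Col2a1, at 0.0575 RPKM and 0.472 RPKM. Col2a1 likewise passed the filter only through MICT1 KO. In bulk RNA, fewer cells of a type and less RNA per cell cannot be told apart, and the part of these marker differences in the results that follow was not tested.

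Of the 9 genes, 4 rose and 4 fell in MICT1 KO at an adjusted p below 0.05 (limma-trend, Benjamini-Hochberg adjustment over all genes tested), and Smad1 was not called. Across all genes tested 56.9% were called, 28.5% as higher and 28.3% as lower. The 4 higher genes were Grem1 and the 3 ID factors, and the 4 lower genes were both receptors, Smad5 and Smad6. Only Grem1 and Id3 reached a 2-fold difference, against 7.99% of all genes called at least 2-fold higher, and none of the 9 was 2-fold lower, against 5.76%. The libraries of the 2 groups did not overlap in 7 of the 9 genes, against 62.0% of all genes tested. Of these 7, 4 lay higher and 3 lower in MICT1 KO, against 30.9% and 31.2% of all genes. The median log2 fold change was 0.047 over the 9 genes and -0.0053 over all genes, and the median size without its sign was 0.35 and 0.33.

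**Figure D1:**
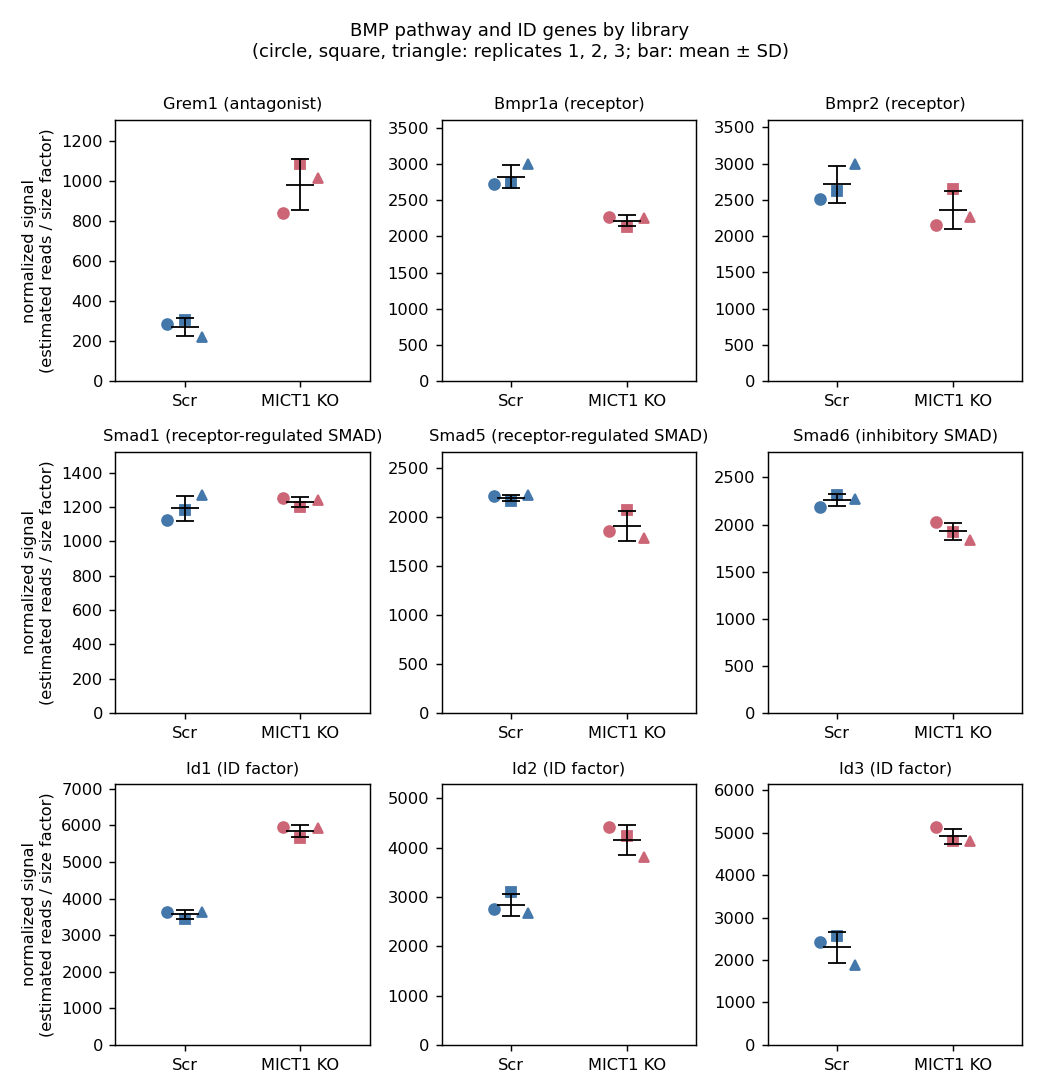
Normalized signal (y axis, estimated reads divided by a size factor, each panel from 0) of the 9 genes in the 3 Scr and 3 MICT1 KO libraries (x axis), with points for single libraries and bars for the mean ± SD. Grem1, Id1, Id2 and Id3 lie higher in every MICT1 KO library, Bmpr1a, Smad5 and Smad6 lie lower in every one, and Bmpr2 and Smad1 overlap.

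The ID factors are described first, since they had the highest levels. Their coding sequences are printed to show the helix-loop-helix region that the family shares and how far the 3 transcripts can be told apart by sequencing. The window is 123 bases long, a length set to span this region, and was placed, in codons and without gaps, where the most bases are shared. It was taken from the longest complete coding sequence of each gene in GENCODE vM21 (positions counted from the first base of the start codon). Capitals mark the 78 positions (63.4%) that are the same in all 3 genes.
Id1, coding bases 175 to 297: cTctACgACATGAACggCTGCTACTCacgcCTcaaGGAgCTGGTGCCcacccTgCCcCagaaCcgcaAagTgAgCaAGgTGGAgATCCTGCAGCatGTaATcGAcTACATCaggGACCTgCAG
Id2, coding bases 106 to 228: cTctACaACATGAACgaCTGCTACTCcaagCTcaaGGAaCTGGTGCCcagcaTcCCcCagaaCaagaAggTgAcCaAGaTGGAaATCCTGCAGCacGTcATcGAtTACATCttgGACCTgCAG
Id3, coding bases 121 to 243: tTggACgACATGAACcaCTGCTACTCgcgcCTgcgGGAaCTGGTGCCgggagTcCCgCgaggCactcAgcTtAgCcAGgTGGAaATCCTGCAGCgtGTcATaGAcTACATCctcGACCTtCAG
Within this window Id1 and Id2 were identical at 82.1% of positions, Id2 and Id3 at 70.7%, and Id1 and Id3 at 69.9%. Over whole transcripts the longest run of bases shared without a mismatch was 11 for Id1 and Id2, 12 for Id1 and Id3, and 19 for Id2 and Id3. The estimated reads of Id2 and Id3 came out as whole numbers in 6 of 6 libraries and those of Id1 in 4 of 6, within a tolerance of 0.1 read.

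Id1 (chromosome 2, from 152736251 to 152737410, GRCm38, plus strand) had values of 3633, 3429.9 and 3628 in Scr, against 5943, 5645 and 5921 in MICT1 KO libraries. The lowest MICT1 KO value was well above the highest Scr value, and replicates lay close together in both groups. The mean rose from 3563 ± 116 (SD, n = 3) to 5837 ± 166 (SD, n = 3), or 1.64-fold, a log2 fold change of 0.71 (standard error 0.053, limma-trend adjusted p = 3.50e-10). Id1 was the most abundant of the 9 genes, at 188 RPKM in Scr and 308 RPKM in MICT1 KO, and stood at rank 131 by mean RPKM over all libraries among the 13120 genes with an exon length.

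Id3 (chromosome 4, from 136143497 to 136145755, plus strand) had values of 2428, 2576 and 1892 in Scr, against 5126, 4814 and 4812 in MICT1 KO libraries. Scr replicate 3 was the lowest, and the groups were far apart. The mean rose 2.14-fold, from 2299 ± 360.1 (SD, n = 3) to 4917 ± 181 (SD, n = 3), and its log2 fold change of 1.11 (standard error 0.081, limma-trend adjusted p = 2.51e-10) was the largest among the ID factors. With each library left out in turn it lay between 0.97 and 1.2.

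Id2 (chromosome 12, from 25093799 to 25097140, minus strand) had values of 2757, 3099 and 2676 in Scr, against 4409, 4239.8 and 3813 in MICT1 KO libraries. Here the groups came closer than for Id1 and Id3 but did not overlap. The mean rose 1.46-fold, from 2844 ± 224 (SD, n = 3) to 4154 ± 307 (SD, n = 3), which on the log2 scale is a change of 0.55 (standard error 0.066, limma-trend adjusted p = 4.73e-07). Among all genes tested, 7.13% had a higher log2 fold change than Id3, 13.1% than Id1 and 17.0% than Id2.

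Added together, Id1, Id2 and Id3 came to 349, 341 and 322 RPKM in the Scr libraries and to 596, 571 and 576 RPKM in the MICT1 KO libraries, a 1.72-fold difference between the means. Id1 made up most of this pool in every library. The share of Id1 by RPKM was 55.7% ± 3.52 (SD, n = 3) in Scr against 53.1% ± 1.28 (SD, n = 3) in MICT1 KO (exact permutation test, two-sided, p = 0.4), and the groups overlapped. The share of Id3 was 24.1%, 25.4% and 20% in Scr against 29.2%, 28.9% and 28.7% in MICT1 KO libraries, and that of Id2 was 20.1%, 22.4% and 20.8% against 18.5%, 18.7% and 16.7%. Neither of these overlapped between the groups. Each gave p = 0.1 in the exact permutation test, two-sided, which is the smallest value 3 libraries against 3 can give. After Benjamini-Hochberg adjustment over 9 shares and ratios, the exact permutation p was 0.129 for both and 0.4 for Id1.

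**Figure D2:**
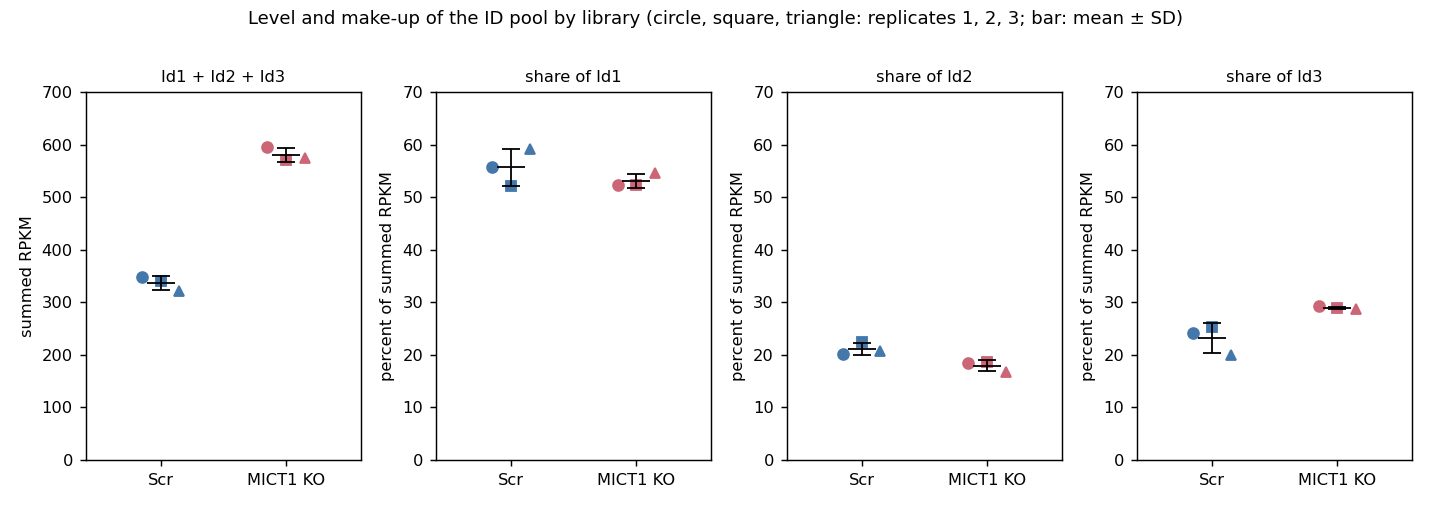
Summed RPKM of Id1, Id2 and Id3 (left panel, y axis from 0) and the percent of that sum from each gene (other panels) in the 3 Scr and 3 MICT1 KO libraries, with bars for the mean ± SD. The sum is higher in every MICT1 KO library, while Id1 stays above 52% of it throughout.

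The fourth ID gene, Id4, was less abundant and rose as well, from 646.7 ± 56.6 (SD, n = 3) to 849 ± 50.8 (SD, n = 3). On the log2 scale the change was 0.39 (standard error 0.087, limma-trend adjusted p = 0.000600). The E proteins, to which ID proteins bind, moved in both directions. Tcf3, which encodes E2A and had the highest RPKM of them, rose with a log2 fold change of 0.17 (limma-trend adjusted p = 0.0153), and this call was lost without Scr replicate 3 (0.15, adjusted p = 0.0550). By normalized signal, Tcf12 was above Tcf3 in Scr, with means of 2315 and 2252. Tcf4 rose with a log2 fold change of 0.72 (limma-trend adjusted p = 9.51e-07), and Tcf12 fell by 0.29 on the log2 scale (limma-trend adjusted p = 0.000406). Together the E proteins came to 44.3 ± 0.868 RPKM (SD, n = 3) in Scr against 47.7 ± 0.736 RPKM (SD, n = 3) in MICT1 KO, a 1.08-fold difference, while Id1 to Id4 came to 347.6 ± 14.6 RPKM (SD, n = 3) and 594 ± 13.6 RPKM (SD, n = 3), a 1.71-fold difference. Both sums, and the ratio between them, depend on the exon lengths used. The log2 ratio of the ID sum to the E protein sum was 2.99, 3.0 and 2.93 in Scr against 3.70, 3.60 and 3.61 in MICT1 KO libraries. The difference of 0.67 on the log2 scale gave p = 0.1 (exact permutation test, two-sided, 0.129 after adjustment).

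Grem1 (chromosome 2, from 113746164 to 113758646, minus strand), which encodes the secreted BMP antagonist gremlin-1, showed the largest difference of the 9 genes. Its values were 285, 308 and 219.8 in Scr, against 841, 1088 and 1017 in MICT1 KO libraries. Every MICT1 KO value was more than double every Scr value. The mean rose 3.63-fold, from 270.8 ± 45.6 (SD, n = 3) to 982 ± 127 (SD, n = 3). This gave a log2 fold change of 1.86 (standard error 0.12, limma-trend adjusted p = 3.27e-11), which 2.34% of all genes tested exceeded. It was also the least abundant of the 9 in Scr, at 3.99 RPKM, and overtook Smad1 and Bmpr2 in MICT1 KO, at 14.5 RPKM. Transcripts of 6 other genes shared a run of 75 or more bases with Grem1, 2 of them in the table. The estimated reads of Grem1 were whole numbers in 6 of 6 libraries. This does not show how reads from such runs were assigned, since the counting model is not given.

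Other antagonists and modulators of BMPs were examined as a list of 16 genes, of which 12 were found and tested. Of these, 9 were higher and 1 was lower in MICT1 KO (limma-trend, adjusted p under 0.05), with a median log2 fold change of 0.71. Over all genes tested 28.5% were higher and 28.3% lower, with a median of -0.0053. The list was chosen with earlier results of these data known. It also holds proteases of the family that cleaves chordin, so its counts do not describe antagonists alone. Fstl1, which encodes a secreted follistatin-like glycoprotein, was the most abundant gene of this list. It rose 3.76-fold, from 7484 ± 497 (SD, n = 3) to 28154 ± 162 (SD, n = 3), which on the log2 scale is a change of 1.91 (limma-trend adjusted p = 5.45e-17). Chrd, the gene of chordin, rose from 14.3 ± 4.68 (SD, n = 3) to 45.9 ± 10.1 (SD, n = 3), so from few reads, and passed the filter only through MICT1 KO. Its log2 fold change was 1.65 (standard error 0.38, limma-trend adjusted p = 0.00105). Fstl3, which encodes a secreted activin-binding protein, rose with a log2 fold change of 1.17 (limma-trend adjusted p = 1.10e-06). The antagonist gene Nbl1 had a log2 fold change of 1.14 (limma-trend adjusted p = 8.97e-09), and Tll1, a protease of the family that cleaves chordin, of 1.02 (limma-trend adjusted p = 3.26e-10). Against this direction, Chrdl1, which encodes a chordin-like antagonist, had values of 374, 344 and 396 in Scr, against 50.5, 41.1 and 42.5 in MICT1 KO libraries. The groups were far apart, and it fell by 3.03 on the log2 scale (standard error 0.17, limma-trend adjusted p = 3.98e-12). The genes not called were Twsg1, with a log2 fold change of 0.093 (limma-trend adjusted p = 0.223), and Bambi, the gene of a decoy receptor. Bambi is named after its values were seen, and Twsg1 had the highest mean RPKM of the tested genes of this list but for Fstl1. Bambi was lower in every MICT1 KO library, with a log2 fold change of -0.35 and an adjusted p of 0.0501 (limma-trend) that lay between 0.0195 and 0.0499 in 5 of the other settings and reached 0.198 without MICT1 KO replicate 3.

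The promoters of the 3 genes that rose most and have an entry in RefSeq's table (GRCm38.p6), Grem1, Id3 and Id2, are printed to show what stands before their start sites. Each is the 250 bases before the start, 5′ to 3′ on the gene's strand. Capitals mark matches, on either strand, to GGCGCC (a GC-rich motif bound by SMAD1 and SMAD5), CAGAC (the SMAD box) and TGACG (the core of the cAMP response element).
Grem1, chr2:113758649-113758898, minus strand: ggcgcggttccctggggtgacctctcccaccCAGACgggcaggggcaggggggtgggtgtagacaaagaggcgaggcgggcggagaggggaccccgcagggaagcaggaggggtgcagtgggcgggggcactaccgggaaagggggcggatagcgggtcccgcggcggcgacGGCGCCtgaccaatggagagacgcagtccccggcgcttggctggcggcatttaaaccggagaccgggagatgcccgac
Id3, chr4:136143572-136143821, plus strand: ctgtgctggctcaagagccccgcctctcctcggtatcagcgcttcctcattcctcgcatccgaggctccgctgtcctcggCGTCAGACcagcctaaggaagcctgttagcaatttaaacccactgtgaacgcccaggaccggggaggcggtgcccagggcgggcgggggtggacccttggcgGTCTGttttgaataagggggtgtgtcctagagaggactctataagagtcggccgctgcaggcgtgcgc
Id2, chr12:25096093-25096342, minus strand: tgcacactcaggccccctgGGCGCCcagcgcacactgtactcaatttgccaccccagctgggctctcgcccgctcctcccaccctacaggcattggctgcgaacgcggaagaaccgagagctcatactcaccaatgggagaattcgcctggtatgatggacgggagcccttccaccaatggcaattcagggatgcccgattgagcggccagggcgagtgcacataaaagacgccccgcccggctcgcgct
In the Grem1 sequence GGCGCC began 78 bases and CAGAC 219 bases before the start. In that of Id3, CAGAC matched 167 and 68 bases before it, and the first match overlapped with a match to TGACG at 170 bases. In that of Id2, GGCGCC began 231 bases before the start. Of the 8 genes with a promoter entry, 5 held GGCGCC (Grem1, Bmpr1a, Bmpr2, Smad5 and Id2), 3 held CAGAC (Grem1, Smad5 and Id3), and 3 held TGACG (Smad1, Smad5 and Id3). For Smad5, 3 start sites were searched. A match to the E-box CANNTG was found in 2 of the 8, Smad5 and Id2. Of all 32851 promoters of this length, 9.6% held GGCGCC, 42.2% CAGAC, 17.8% TGACG and 66.2% CANNTG. Such matches describe the sequence and were not tested as binding sites.

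Both BMP receptor genes were lower in MICT1 KO libraries. Bmpr1a (chromosome 14, from 34410734 to 34503341, minus strand), which encodes a type I receptor, had values of 2729, 2735 and 3007 in Scr, against 2263, 2131 and 2261 in MICT1 KO libraries. The groups did not overlap. An antisense gene, Gm17110, overlaps its exons and was not in the table. The mean fell from 2823 ± 159 (SD, n = 3) to 2218 ± 75.4 (SD, n = 3), 21.4% lower, a log2 fold change of -0.35 (standard error 0.060, limma-trend adjusted p = 4.95e-05).

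Bmpr2 (chromosome 1, from 59763400 to 59879014, plus strand), the type II receptor gene, had values of 2516, 2623 and 2999.9 in Scr, against 2157, 2649.9 and 2257 in MICT1 KO libraries. MICT1 KO replicate 2 lay inside the range of Scr. Its mean was 2713 ± 254 (SD, n = 3) in Scr against 2355 ± 260.4 (SD, n = 3) in MICT1 KO, a log2 fold change of -0.21 (standard error 0.076, limma-trend adjusted p = 0.0259). This call rested on single libraries. Without Scr replicate 3 the log2 fold change was -0.13 (limma-trend adjusted p = 0.165), without MICT1 KO replicate 1 it was -0.15 (adjusted p = 0.115), and without MICT1 KO replicate 3 it was -0.18 (adjusted p = 0.0899). The log2 ratio of Bmpr1a to Bmpr2 overlapped between the groups, at 1.56 ± 0.0568 (SD, n = 3) and 1.42 ± 0.205 (SD, n = 3) (exact permutation test, two-sided, p = 0.4).

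Of 9 further receptor and co-receptor genes 7 were found and tested, 3 of them higher and 2 lower (limma-trend, adjusted p under 0.05). This is 71.4% called, against 56.9% of all genes tested. Acvr1, another type I receptor gene, had a log2 fold change of 0.25 (limma-trend adjusted p = 0.0160), and this call was lost without MICT1 KO replicate 3 (0.19, adjusted p = 0.0949). Acvr2a, a type II receptor gene shared with activins, fell from 626 ± 13.2 (SD, n = 3) to 424 ± 25.2 (SD, n = 3). On the log2 scale the change was -0.56 (limma-trend adjusted p = 2.36e-05). For the related Acvr2b the log2 fold change was -0.29, with a 95% interval from -0.61 to 0.032 (limma-trend adjusted p = 0.117), and it was called only without MICT1 KO replicate 2 (-0.41, adjusted p = 0.0447). Of the 7, Eng and Rgma differed most. Eng, the gene of endoglin, had values of 238, 192 and 251 in Scr, against 728, 634 and 796 in MICT1 KO libraries. This gave a log2 fold change of 1.66 (limma-trend adjusted p = 1.81e-10). Rgma, a co-receptor gene of the repulsive guidance molecule family, went the other way, with values of 409.5, 421 and 486 in Scr, against 169, 184 and 167 in MICT1 KO libraries and a log2 fold change of -1.33 (limma-trend adjusted p = 9.73e-09). Acvrl1, at 0.135 RPKM in Scr and 0.152 RPKM in MICT1 KO, was close to the filter and was not called.

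On the ligand side, 2 of 13 other ligand genes were found. Gdf10, a divergent family member also known as BMP-3b, fell from 1195 ± 57.6 (SD, n = 3) to 309.9 ± 19.9 (SD, n = 3), which on the log2 scale is a change of -1.94 (standard error 0.088, limma-trend adjusted p = 8.91e-14). Bmp8a had values of 1.98, 1.85 and 3.05 in Scr, against 4.77, 2.11 and 2.07 in MICT1 KO libraries and was below the filter. With Bmp4 not analysed, the planned ratio of Bmp4 to Grem1 could not be computed.

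The receptor-regulated SMAD genes showed small differences. Smad1 (chromosome 8, from 79338395 to 79399518, minus strand) had values of 1126, 1183 and 1267 in Scr, against 1255, 1199 and 1238 in MICT1 KO libraries, and every MICT1 KO value lay within the Scr range. Its log2 fold change was 0.047 (limma-trend adjusted p = 0.582), with a 95% interval from -0.097 to 0.19. Smad5 (chromosome 13, from 56703010 to 56742377, plus strand) had values of 2209, 2157 and 2217 in Scr, against 1858, 2072 and 1785 in MICT1 KO libraries. The groups did not overlap, but MICT1 KO replicate 2 came close to Scr. Smad5 fell by 13.2%, a log2 fold change of -0.21 (standard error 0.064, limma-trend adjusted p = 0.00950), and without MICT1 KO replicate 3 it was no longer called (-0.16, adjusted p = 0.0659). The log2 ratio of Smad1 to Smad5 was -0.73, -0.62 and -0.56 in Scr against -0.32, -0.54 and -0.28 in MICT1 KO libraries. It was higher in MICT1 KO by 0.25 (exact permutation test, two-sided, p = 0.1, adjusted 0.129).

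The remaining receptor-regulated SMAD of the BMP pathway, Smad9, was the least abundant, at 3.82 RPKM in Scr, and rose 2.09-fold, from 335 ± 7.83 (SD, n = 3) to 701 ± 43.1 (SD, n = 3). On the log2 scale the change was 1.06 (limma-trend adjusted p = 5.03e-09). Smad1 and Smad9 share a run of 29 identical bases at most. Smad4, the common partner, had a log2 fold change of -0.042 (limma-trend adjusted p = 0.596), with a 95% interval from -0.18 to 0.091.

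The inhibitory SMAD genes moved apart. Smad6 (chromosome 9, from 63953076 to 64022059, minus strand), whose product acts mainly on BMP receptors and SMADs, had values of 2186, 2309 and 2275 in Scr, against 2023, 1922 and 1839 in MICT1 KO libraries. Every MICT1 KO value was below every Scr value. Smad6 fell from 2257 ± 63.7 (SD, n = 3) to 1928 ± 92.2 (SD, n = 3), 14.6% lower, a log2 fold change of -0.23 (standard error 0.061, limma-trend adjusted p = 0.00313). Smad7, whose product also inhibits TGF-β receptors, had values of 2156, 2443 and 2260.1 in Scr, against 2883, 3148 and 2952 in MICT1 KO libraries. It rose by 0.39 on the log2 scale (standard error 0.062, limma-trend adjusted p = 1.69e-05). The log2 ratio of Smad7 to Smad6 was -0.52, -0.42 and -0.51 in Scr against 0.015, 0.22 and 0.19 in MICT1 KO libraries, so by RPKM Smad6 was above Smad7 in each Scr library and below it in each MICT1 KO library. That order depends on the exon lengths used, while the difference of 0.62 between the groups does not. This difference gave p = 0.1 (exact permutation test, two-sided, adjusted 0.129).

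**Figure D3:**
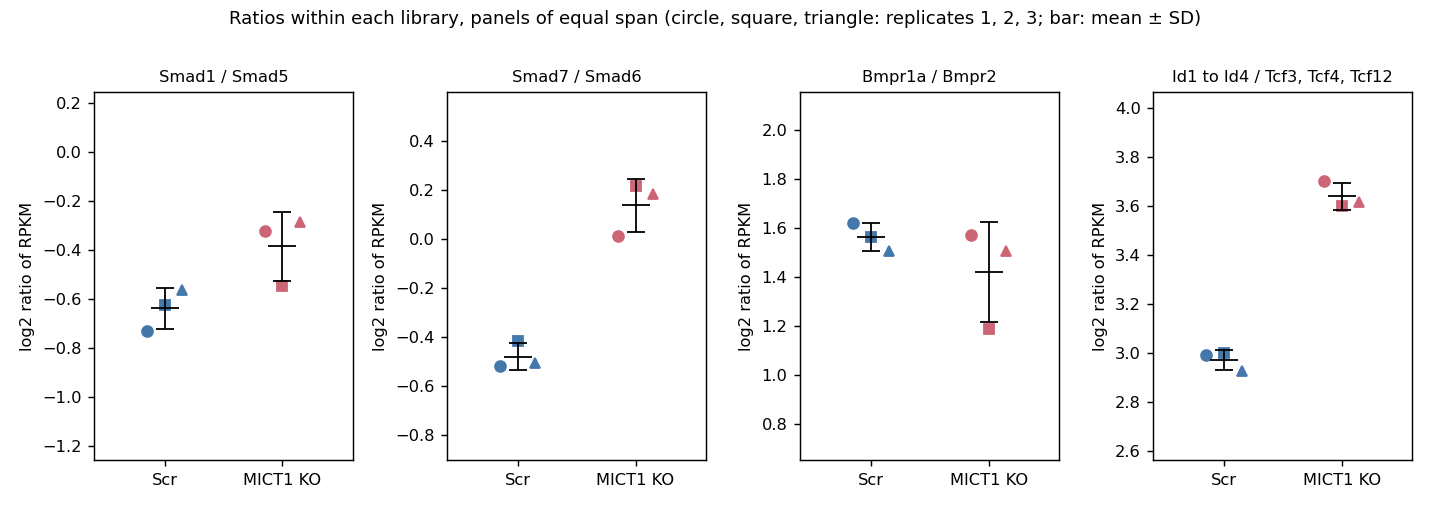
Log2 ratios of RPKM within each library (y axis, each panel spans the same range) for Smad1 over Smad5, Smad7 over Smad6, Bmpr1a over Bmpr2, and summed Id1 to Id4 over the summed E protein genes, in Scr and MICT1 KO libraries with bars for the mean ± SD. The groups are apart in all panels but that of Bmpr1a and Bmpr2.

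Of 13 SMAD genes and regulators of SMADs on the wider list, Smad4, Smad7 and Smad9 included, 3 were higher, 6 were lower and 4 were not called (limma-trend, adjusted p under 0.05). The 69.2% called stand against 56.9% of all genes tested, of which 28.5% were higher and 28.3% lower. Tob1, an antiproliferative gene whose product binds SMADs, had the highest mean RPKM over all libraries but for Smad4 and fell from 1931 ± 116 (SD, n = 3) to 1121 ± 59.1 (SD, n = 3). This gave a log2 fold change of -0.78 (limma-trend adjusted p = 4.10e-09). Beside Smad4, the genes not called were Smurf1 (0.14, adjusted p = 0.0706), Skil (-0.0044, adjusted p = 0.956) and Zfp423 (0.11, adjusted p = 0.875, at 0.129 RPKM in Scr), all from limma-trend and named after their values were seen.

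Genes known to respond to BMPs in other cell types were examined as a list. Of 10 on the list, Id4 included, 8 were found and 7 tested, 6 of them higher and 0 lower (limma-trend, adjusted p under 0.05), with log2 fold changes between 0.21 and 0.90 over the 7. The share over all genes tested was 28.5% higher and 28.3% lower. Atoh8, a transcription factor gene and the most abundant of them by RPKM, rose from 1146 ± 73.1 (SD, n = 3) to 1527 ± 83.1 (SD, n = 3), which on the log2 scale is a change of 0.41 (limma-trend adjusted p = 4.13e-05). Sox9 had a log2 fold change of 0.24 (limma-trend adjusted p = 0.00988), and this call was lost without Scr replicate 3 (0.16, adjusted p = 0.0722). Hey1, named after its values were seen, was not called (0.21, limma-trend adjusted p = 0.513). The list of responsive genes was also chosen with earlier results of these data known. It leaves out Id1, Id2, Id3 and Smad6, the BMP targets named at the start. Of those, Id1, Id2 and Id3 were higher, but Smad6 was lower (-0.23, limma-trend adjusted p = 0.00313). Over the whole wider list of 64 genes, 45 were found and 43 tested, of which 23 were higher and 11 lower, with a median log2 fold change of 0.24. This is 79.1% called, against 56.9% of all genes tested and their median of -0.0053.

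**Figure D4:**
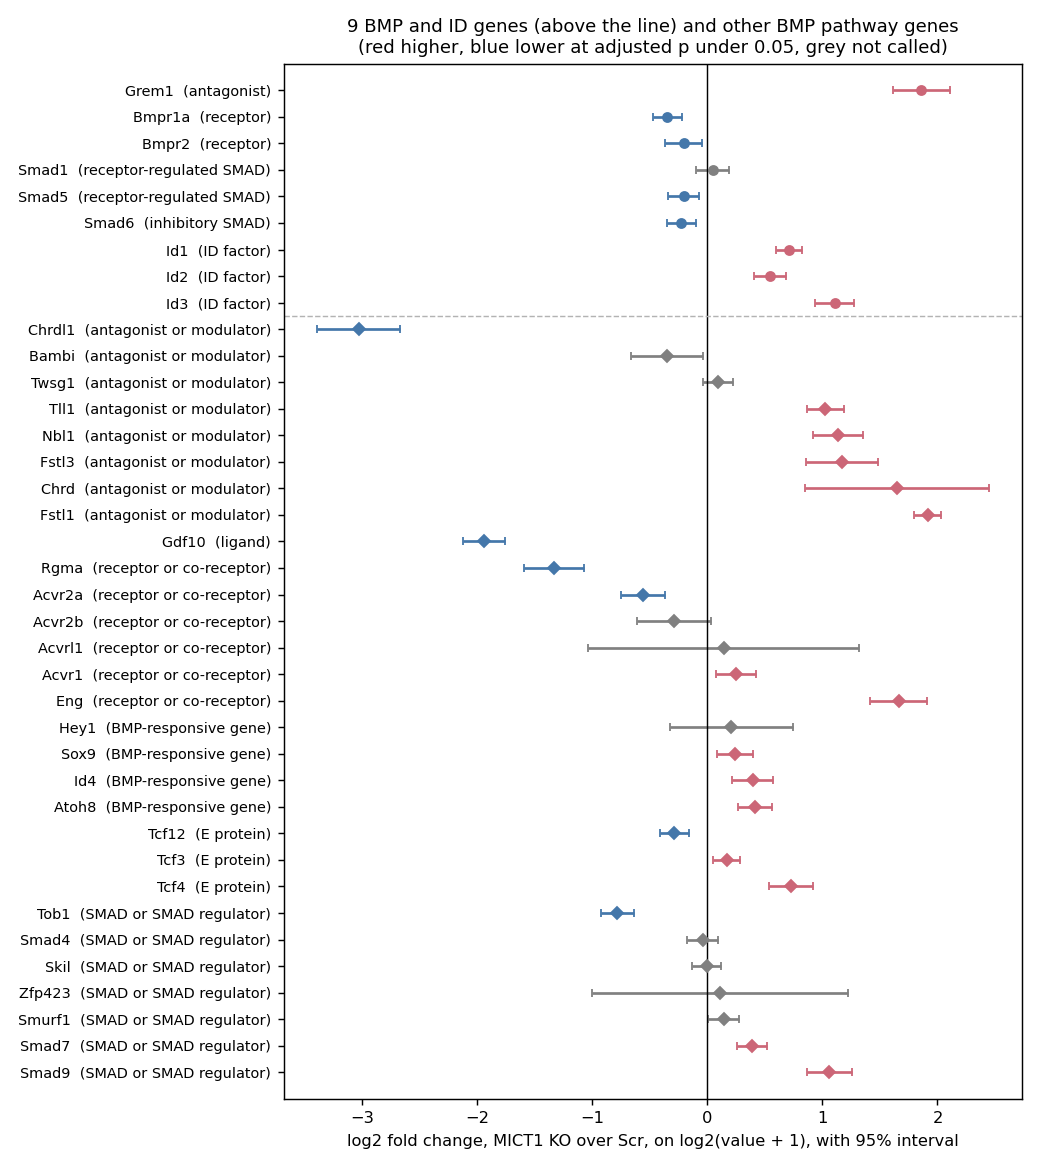
Log2 fold changes of MICT1 KO over Scr on log2(value + 1) (x axis) with 95% intervals from limma-trend, for the 9 BMP and ID genes (circles, above the dashed line) and the other pathway genes named (diamonds), red for higher, blue for lower and grey for not called. Grem1 lies at 1.86 and Fstl1 at 1.91, the receptors, Smad5 and Smad6 between -0.35 and -0.21, and Chrdl1 at -3.03.

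By level per exon length, the 9 genes kept much the same order in both groups. In Scr the order was Id1, Id3, Id2, Smad6, Bmpr1a, Smad5, Smad1, Bmpr2 and Grem1, from 188 to 3.99 RPKM, and only the neighbours Id3 and Id2 overlapped in their libraries. In MICT1 KO Grem1 stood between Smad5 and Smad1, overlapping with Smad5, and Id3 lay above Id2 without overlap, at 168 and 104 RPKM. RPKM rests on all annotated exons of a gene, 17983 bases for Bmpr2 and 1160 for Id1, so levels of genes with long alternative exons are understated more.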

How the data were processed

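The data are RNA-seq values of 3 Scr and 3 MICT1 KO libraries, grouped by the sample labels. Per the study's methods, stranded total RNA libraries were aligned to NCBI38/mm10 in Partek. The authors' processing notes also name STAR and DESeq2, with no version. The annotation and counting model are not given in the sources used here. The authors deposited a normalized signal per gene, above 0 in every library. Between 88.6% and 90.2% of values under 20 were whole multiples, within 0.01, of a step whose inverse is the size factor. The values are not whole counts, so no count test was run.

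Differences were fitted with limma 3.58.1 (limma-trend, R 4.3.3) on log2(value + 1), without covariates, after a filter of at least 10 in at least 3 libraries. Fold changes on this scale are understated for low values. Genes were called at an adjusted p below 0.05 (Benjamini-Hochberg, 12507 genes). Shares and ratios used exact permutation tests (scipy 1.17.1), which cannot give p below 0.1. Ratios other than those of Smad1 to Smad5, and of the ID shares, were added after the data were seen. RPKM used the summed value of a library and GENCODE vM21 exon lengths, found for 13120 genes (98.77%), those whose symbol matched 1 gene. Positions are from GENCODE vM21 (GRCm38). The genes and lists were chosen with earlier results of these data known. A gene of the wider list is not reported here and was left out of its counts. Genes named beyond the 9 were those of the wider list called with a log2 fold change of at least 1 in size, the 2 with the highest RPKM in each role, and Smad4, Smad7, Smad9, Id4, Acvr1, Acvr2a, Acvr2b and the E proteins. Counting error of the 9 genes was 1.27% to 6.80% per library and covers counting only. The fit was tested on simulated data with fewer and larger changes than those seen here, which does not show how it does at small changes. Alternatives were other scalings, filters, pseudocounts, limma-voom, the replicate number as a block and each library left out.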

Additional observations from a re-analysis of the deposited data

How the results depend on the processing

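Under the 15 alternatives to the fit, the count of called genes among the 9 stayed between 6 and 8, with 4 higher in each, and was lowest without MICT1 KO replicate 3. Over the wider list it lay between 30 and 35, and over all genes between 5460 and 7150, with the fewest under a maximum of at least 4 RPKM. Library-size scaling and the trimmed mean of M values moved the median of all genes by less than 0.01 on the log2 scale. Cell type markers were left out of the comparisons of single genes. Of 559 comparisons of another named gene with an alternative, 546 kept their side of the threshold, 7 lost a call and 6 gained one, and none reversed. The lost calls were those of Bmpr2, Smad5, Acvr1, Sox9 and Tcf3 and the gained ones those of Acvr2b and Bambi, all but 3 of them with a library left out. The cause was not tested. With the replicate number as a block 8 of the 9 genes and 7055 genes in all were called. Libraries with the same number did not deviate together (correlations of -0.0236, -0.0155 and 0.0637 across genes), so the numbers were not taken as pairs. With the block Bambi was called (adjusted p = 0.0438), and the paired exact test of the Smad1 to Smad5 ratio gave p = 0.25, the smallest 3 pairs allow, at a difference of 0.25. With each library left out, that difference lay between 0.20 and 0.33, that of the Id1 share between -4.40 and -0.88 percentage points, of the Id2 share between -3.64 and -2.49 and of the Id3 share between 4.20 and 6.89. With 3 libraries a group, exact tests cannot pass 0.05, and genes with few reads, such as Chrd, Acvrl1 and Zfp423, have wide intervals.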
